A study of Mus musculus with 16 samples.

Results

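The response of wild-type mouse embryonic fibroblasts to the proteasome inhibitor MG132 was described across all genes that the arrays measured well. It rests on 8 of the 16 arrays of the series, 4 from wild-type (CHOP+/+) cells given 1 µM MG132 for 8 hours and 4 from untreated wild-type cells collected at the same time. Each gene was represented by its brightest probe set among those that name that gene alone, and 11457 of 18193 genes with such a probe set passed a filter on low signals and were tested. The remaining 8 arrays came from CHOP-/- fibroblasts with the same 2 treatments, and they entered the fit and the closing comparison. CHOP is the product of Ddit3, and the series was made to find genes whose response to proteasome inhibition needs it. All cells grew in the same serum-containing medium, and each array came from a plate of its own. The labels do not say whether plates came from separate embryos, so p-values measure the spread between plates. They also differ on the controls, which are untreated in the titles and given the solvent DMSO in the descriptions.

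The proteasome breaks down proteins tagged with ubiquitin, among them misfolded proteins and many short-lived regulators of signalling, the cell cycle and cell death. When it is blocked, cells are known to raise cytosolic chaperones through HSF1, proteasome subunits through NRF1 (Nfe2l1), amino acid and redox genes through ATF4 and NRF2, and autophagy receptors that collect ubiquitin-tagged aggregates. NF-kB needs the proteasome to destroy its inhibitor, and cyclins and growth-induced transcription factors are themselves proteasome substrates.

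MG132 changed the RNA of most genes, and few by much. With limma and Benjamini-Hochberg adjustment at 0.05, 3107 genes (27.1%) rose and 4221 (36.8%) fell, while 4129 did not pass. The median size of a called change was 0.54 on the log2 scale, and 464 genes rose and 727 fell at least 2-fold on the deposited scale. Beyond 2 log2 units rises outnumbered falls: 109 genes rose and 45 fell by 2 or more log2 units, and 34 rose and 4 fell by 3 or more. In 6323 of the called genes (86.3%) the 4 treated values did not overlap the 4 untreated ones. This holds for each of the genes whose values are given array by array here. The median change of all tested genes was -0.07, which is the background for the gene groups that follow. Rises were 42.4% of the calls on the deposited scale and 61.7% after centring the arrays on the median of the tested genes, which adds 0.20 to each change and gives 783 rises and 416 falls of at least 2-fold. Changes here are log2 differences of signal + 16, with their standard error (SE), a constant that understates the changes of dim genes, and "rose" and "fell" refer to the limma test. In bulk RNA, fewer cells of a type and less RNA per cell cannot be told apart.

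**Figure D1:**
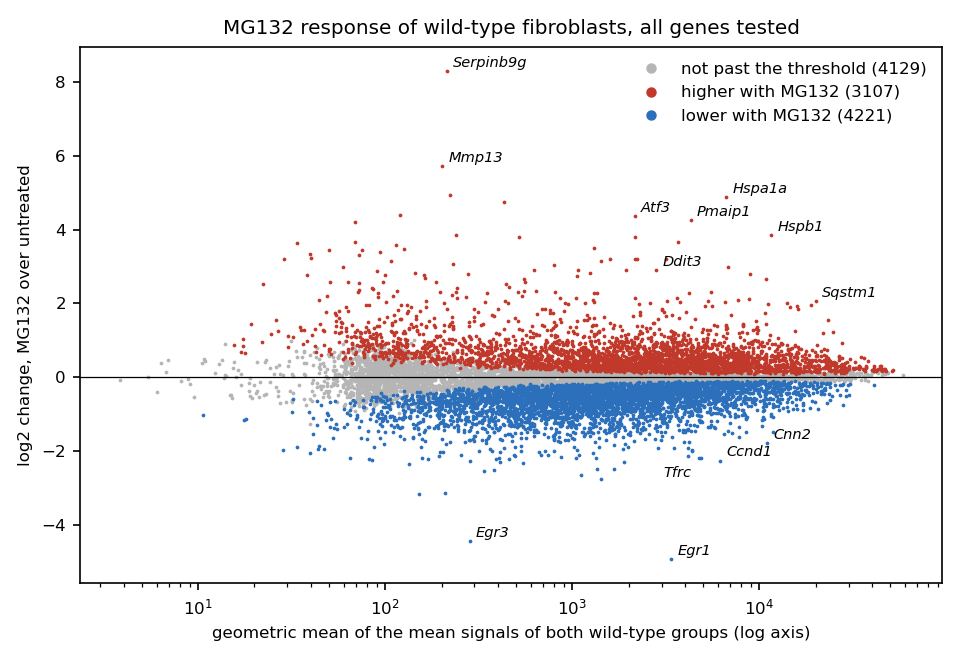
Geometric mean of the mean signals of both wild-type groups for each of 11457 genes (log axis, MAS5 signal units), against its log2 change with MG132. The 3107 genes that rose, the 4221 that fell and the 4129 that did not pass are coloured separately, and labelled genes such as Hspa1a (4.89) and Egr1 (-4.93) lie far outside the bulk.

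The arrays of each wild-type group correlated at 0.985 to 0.991 across genes, against 0.942 to 0.952 between groups. The upper quartile of the signal was 896 in untreated and 833 in treated cells, and the 3' to 5' ratio of Actb was 1.16 and 1.23 (exact permutation p = 0.0286 for each, the smallest that 4 against 4 allows, Benjamini-Hochberg adjusted 0.0571). Their part in the changes was not tested. Of 12 fibroblast markers, 10 averaged at least 100 in both groups, and their summed signal was 126374 to 143154 untreated and 119955 to 130585 with MG132. The low ones were Lum (36.3 untreated, 38.1 treated) and Dcn (38.5 and 65.3). The 10 epithelial markers summed to 701 to 841 untreated and 1757 to 2113 treated, most of it from Krt14 (means 10.1 and 471) and Sfn (279 and 877). Summed signals were also higher in treated cells, with no overlap, for 5 markers of cartilage and bone (239 to 504 and 631 to 839, mostly Sox9), for 5 of placenta and blood (80.2 to 235 and 341 to 445, mostly Afp) and for 5 of fat (1100 to 1177 and 1191 to 1333). The summed signal of 9 markers of skeletal muscle was lower, 1265 to 1556 untreated and 855 to 1234 treated, mostly through Acta1 (means 1104 and 502). Of the 4 tested, 1 fell (Acta1) and 1 rose (Tnnt2, means 15.5 and 230). The part of these cell types in the changes was not tested.

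Many cytosolic chaperones rose. Of 14 tested members of the HSP70 and HSP110 group, which fold proteins with ATP or release their nucleotide, 11 rose and 2 fell (78.6% rose against the 27.1% of all genes), with a median of 0.43. Hspa1a, the stress-inducible HSP70, gave 1371, 1206, 1097 and 1157 on the untreated arrays and 35908, 33159, 39661 and 36614 on the treated ones. That was the largest rise among genes measured above 100 in both groups (4.89, SE 0.07, adjusted p = 1.63e-21), and the groups lay far apart. Its near-identical copy Hspa1b changed by 1.56 from a higher untreated mean of 13505, and how the probes split signal between the copies is uncertain. Hsph1, an HSP110 exchange factor, went from 10176, 9551, 10013 and 8713 to 37298, 34938, 39696 and 37852. The constitutive HSP70, Hspa8, rose by 0.29 (SE 0.07) from a mean of 39994, which was 0.80 as the mean over its probe sets and 1.81 without the probe sets marked for possible cross-hybridisation.

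Partners of HSP70 and HSP90 moved with them. Of 15 HSP40 co-chaperones, which hand clients to HSP70, 8 rose and 3 fell (median 0.35), led by Dnaja4 at 3.20, Dnajb1 at 1.85, Dnajb2 at 1.54 and Dnajb4 at 1.44. Of 12 members of the HSP90 group, 9 rose and 0 fell (median 0.63). Ahsa2, an activator of HSP90, had the largest of its named changes at 1.31, with 3074, 3128, 3293 and 3251 untreated and 7724, 8084, 8213 and 7723 treated.

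The small heat shock proteins, which hold unfolded proteins without ATP, had a median change of 1.93, with 3 of 5 higher and 1 lower. Hspb1 (HSP27) gave 2762, 3087, 3231 and 3023 untreated and 44028, 39868, 49463 and 42477 treated, a change of 3.85 (SE 0.06). Cryab rose by 2.31 and Hspb8 by 1.93, whereas Hspb6 fell by 0.82. The TRiC chaperonin and prefoldin, which fold actin and tubulin, were mixed: 7 of 14 rose and 4 fell (median 0.10), with Cct7 at 0.43 and the prefoldin subunits Pfdn1 at -0.49 and Pfdn5 at -0.45, which was -0.12 and did not pass as the mean over its probe sets. In mitochondria, 9 of 13 chaperones and proteases rose and 2 fell, and the matrix protease Lonp1 rose most among those named, by 1.17.

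**Figure D2:**
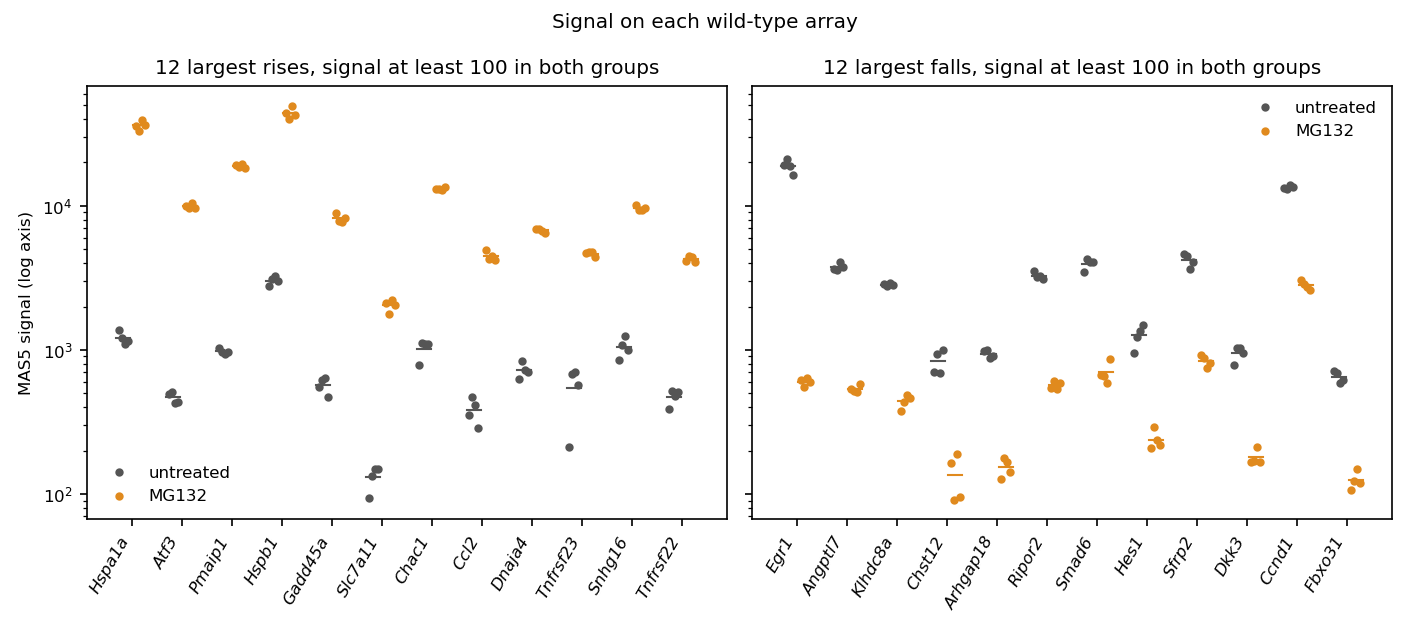
Signal on each wild-type array (log axis) for the 12 largest rises and the 12 largest falls among genes averaging at least 100 in both groups. Grey points are untreated arrays, orange points treated arrays and short lines group means. In each row the groups do not overlap, and Hspa1a spans 1097 to 39661.

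Most proteasome subunits rose, and none of the core rose 2-fold. Of 14 subunits of the 20S core, the proteolytic chamber, 11 rose and 0 fell (median 0.36). Of 18 subunits of the 19S cap, which binds and unfolds ubiquitin-tagged proteins, 17 rose and 0 fell (median 0.51). Psmb2, a core subunit, had the largest named change, with 7104, 7696, 8101 and 7896 untreated and 14625, 13486, 13903 and 13245 treated (0.84, SE 0.05). Psmb5, the chymotrypsin-like subunit that MG132 chiefly binds, averaged 12828 ± 1024 (SD, n = 4) and 12985 ± 428, and its difference of 0.02 (SE 0.05) did not pass (limma adjusted p = 0.735), whereas with centring on the tested genes it was 0.22 and passed.

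In the cap, Psmd1, its large scaffold, rose by 0.65, and the deubiquitinase Psmd14 by 0.61, from 17519, 17733, 19670 and 17143 to 28182, 25687, 28718 and 27352. Regulators and assembly factors did not follow the subunits: 6 of 14 rose and 6 fell, with a median of -0.05 that turns to 0.16 when arrays are centred on the tested genes. Nfe2l1, the transcription factor NRF1, rose from 1505 ± 267 to 2557 ± 139 (0.77, SE 0.09). Ngly1, the glycanase that NRF1 needs to become active, fell by 0.69, and the assembly chaperone Psmg1 fell by 0.47.

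Genes that extract and deliver ubiquitin-tagged proteins rose too, 12 of 18 against 3 that fell (median 0.49). Zfand2a (AIRAP), a proteasome-binding zinc finger protein first known from arsenite stress, gave 4265, 4379, 4188 and 4280 untreated and 27106, 25743, 28633 and 27803 treated (2.67, SE 0.04). The other named rises were Ubxn4 at 1.31, Zfand3 at 1.09, the p97 cofactors Nploc4 at 0.95 and Nsfl1c at 0.71, and Zfand5 at 0.63, with 0.67 for Zfand3 and 0.37 for Zfand5 as the mean over their probe sets. Of 30 autophagy and aggregate genes, 18 rose and 6 fell (median 0.27). Sqstm1 (p62), the receptor that links ubiquitin to autophagosomes, went from 8882, 10481, 10382 and 9535 to 41020, 37483, 43462 and 42263 (2.06, SE 0.05). Wipi2, which acts early in autophagosome formation, rose by 1.78 (1.03 as the mean over its probe sets), Atg12 by 1.67 and Atg14 by 1.38. Lysosomal hydrolases and proton pump subunits rose in 20 of 24 cases and fell in 3 (median 0.51), among them Atp6v1h at 1.07 and cathepsin D (Ctsd) at 0.93. Gusb, a lysosomal glucuronidase, fell by 0.75.

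Many genes of the integrated stress response, in which phosphorylated eIF2 lets ATF4 be translated, rose in RNA. Of 25 regulators and feedback genes, 18 rose and 4 fell (median 0.76). Atf3, a stress-induced transcription factor, gave 496, 510, 430 and 435 untreated and 9943, 9614, 10528 and 9597 treated (4.36, SE 0.06). Chac1, which breaks down glutathione, gave 791, 1109, 1091 and 1096 untreated and 13142, 12982, 12917 and 13584 treated (3.68, SE 0.08), and its untreated replicate 1 lay below the rest. Ddit3 gave 887, 1054, 998 and 1127 untreated and 8181, 6891, 8087 and 7739 treated, a change of 2.91 that was 1.54 as the mean over its probe sets. The brake Trib3 rose by 2.29, and the eIF2 phosphatase subunit Ppp1r15a (GADD34) by 2.14. Atf4 itself, whose control is mainly in translation, rose by 0.53, and Atf5 fell by 0.86.

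The RNA of genes for amino acid supply moved in the same direction. Transporters rose in 11 of 15 cases and fell in 1 (median 0.68). Slc7a11, the cystine carrier that feeds glutathione synthesis, gave 94.0, 134, 150 and 148 untreated and 2122, 1761, 2217 and 2048 treated (3.81, SE 0.12). Its partner chain Slc3a2 rose by 1.13. Enzymes of amino acid and one-carbon synthesis rose in 12 of 15 cases and fell in 2 (median 0.72), with the alanine transaminase Gpt2 at 2.05, Psph, the last enzyme of serine synthesis, at 1.28, and Mthfd2 of the mitochondrial folate cycle at 1.05. Aminoacyl-tRNA synthetases, which load tRNAs, rose in 15 of 19 cases and fell in 1 (median 0.47), with Cars at 1.37 and Wars at 1.15.

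Endoplasmic reticulum (ER) folding genes were divided: 14 of 34 rose and 11 fell (median 0.09), which became 20 and 5 (median 0.30) with centring on the tested genes. Dnajb9 (ERdj4) gave 2838, 2640, 2468 and 2534 untreated and 7890, 7879, 7998 and 7840 treated (1.59, SE 0.05). Herpud1, which works in ER-associated degradation, rose by 1.15, and the chief ER chaperone Hspa5 (BiP) by 0.56. The translocon subunit Sec61b fell by 0.65 and Mbtps2, the protease that releases ATF6, by 0.83. Xbp1 averaged 10178 ± 293 and 9667 ± 335, a change of -0.07 (limma adjusted p = 0.18) that was -0.13 and passed with quantile normalisation. Without the probe sets marked for possible cross-hybridisation it was 0.05 and did not pass, so its sign depends on the processing.

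Promoters of genes that rose were searched for the elements of these pathways, from 250 bases before to 50 after the start, on both strands, in RefSeq sequence of GRCm38.p6. Of the tested genes 9285 had a promoter in that table, among them 360 that rose and 569 that fell at least 2-fold. One promoter is shown for each of 4 stress elements, with the element in capitals, as the named gene with the largest rise that holds it. Each sequence runs 5′ to 3′ along the gene's strand. Hsph1 (chr5:149636287-149636586, minus strand) holds a heat shock element that begins at 36 after the start. This element is 3 units of GAA and its reverse complement TTC in turn, with any 2 bases between. Atf3 (chr1:191183284-191183583, minus strand) holds, in reverse complement, the C/EBP-ATF composite TGATGNAA beginning at -110. Zfand2a (chr5:139484442-139484741, minus strand) holds the cAMP response element TGACGTCA beginning at -125. Hspa5 (chr2:34771840-34772139, plus strand) holds an ER stress element, CCAAT and CCACG separated by any 9 bases, beginning at -65.
Hsph1: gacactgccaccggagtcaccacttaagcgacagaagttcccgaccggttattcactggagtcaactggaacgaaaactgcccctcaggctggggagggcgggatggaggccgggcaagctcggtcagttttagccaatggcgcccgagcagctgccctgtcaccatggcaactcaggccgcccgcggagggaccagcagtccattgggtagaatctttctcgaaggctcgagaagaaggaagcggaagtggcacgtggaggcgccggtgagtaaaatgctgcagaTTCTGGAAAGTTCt
Atf3: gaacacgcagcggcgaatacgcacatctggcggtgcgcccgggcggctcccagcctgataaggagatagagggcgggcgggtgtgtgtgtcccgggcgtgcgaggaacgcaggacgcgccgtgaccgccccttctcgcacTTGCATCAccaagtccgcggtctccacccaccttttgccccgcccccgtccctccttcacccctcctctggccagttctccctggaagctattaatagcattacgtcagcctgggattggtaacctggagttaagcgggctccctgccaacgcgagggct
Zfand2a: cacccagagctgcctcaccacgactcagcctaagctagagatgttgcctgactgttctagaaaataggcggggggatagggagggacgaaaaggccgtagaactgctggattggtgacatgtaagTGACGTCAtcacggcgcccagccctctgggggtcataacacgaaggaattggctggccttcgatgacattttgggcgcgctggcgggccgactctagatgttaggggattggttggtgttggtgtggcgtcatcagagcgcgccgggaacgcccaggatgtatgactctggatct
Hspa5: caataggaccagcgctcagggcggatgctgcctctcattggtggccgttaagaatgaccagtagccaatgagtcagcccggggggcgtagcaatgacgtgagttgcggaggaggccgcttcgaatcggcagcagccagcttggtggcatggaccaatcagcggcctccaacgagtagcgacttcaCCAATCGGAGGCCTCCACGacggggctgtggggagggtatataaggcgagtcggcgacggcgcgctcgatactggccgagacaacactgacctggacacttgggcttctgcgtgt

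The composite was in 2.14% of all promoters (199), in 4.44% of those of genes that rose at least 2-fold (16) and in 1.41% of those that fell (8). Members of the stress response that hold it include Atf3, Chac1, Trib3 and Nupr1 (5 of 23 promoters of that list), and 5 of 12 synthetase promoters hold it, among them that of Tars. The heat shock element was in 0.366%, 1.11% and 0% of the same 3 sets (34, 4 and 0 promoters), so most large rises had none in this window. The promoter of Hspa1a held none of the 9 motifs searched. The ER stress element was in 13 promoters of all (0.14%), of which 9 were among the 30 of the ER list, and in none of the 360. The cAMP response element was in 3.33%, 3.89% and 1.41%. The antioxidant element TGACNNNGC was in 14.7%, 12.5% and 12%, and the kappa B site in 5.07%, 8.33% and 4.04%.

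Targets of NRF2, the regulator of antioxidant defence, rose in 17 of 24 cases and fell in 3 (median 0.52). Hmox1, which degrades haem, gave 3290, 3288, 3295 and 3624 untreated and 22617, 22221, 25001 and 24514 treated (2.80, SE 0.05). Osgin1 rose by 2.46, the peroxiredoxin repair enzyme Srxn1 by 1.78, the biliverdin reductase Blvrb by 1.65 and Gclc, which starts glutathione synthesis, by 0.96. Nfe2l2, which encodes NRF2, averaged 7696 and 7590, a change of -0.02 (limma adjusted p = 0.73) that became 0.18 with centring on the tested genes. Among iron genes, the ferritin chain Fth1, named after its values were seen, rose by 0.44. The transferrin receptor Tfrc, which imports iron, fell from 11348, 9970, 10011 and 10253 to 2223, 2141, 2353 and 2343 (-2.19, SE 0.06). Metallothioneins, which bind zinc, rose, Mt2 by 2.28 and Mt1 by 1.11, while the zinc importer Slc39a10 fell by 1.36. Of the 13 metallothioneins and zinc transporters, 6 rose and 6 fell, and their median of -0.03 turned positive with other scalings (0.17 with centring on the tested genes, 0.08 with quantile normalisation).

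Regulators of cell death did not move one way. In the BCL2 family 3 of 14 rose and 8 fell (median -0.47). The rises were those of BH3-only killers: Pmaip1 (NOXA), which gave 1039, 961, 944 and 968 untreated and 19294, 18609, 19451 and 18310 treated (4.25, SE 0.07), Bcl2l11 (BIM) at 1.42 and Bid at 0.42. The BH3-only genes Bnip3 and Bad fell, by 1.14 and 0.80, as did the survival gene Bcl2l1 (BCL-xL), by 0.67 (by 0.29 as the mean over its probe sets). Mcl1, the partner of NOXA, averaged 15000 and 15777 (0.07, limma adjusted p = 0.415), and the mean over its probe sets gave -0.31.

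Of 24 death receptor and caspase genes, 9 rose and 10 fell (37.5% and 41.7%, beside 27.1% and 36.8% of all tested genes, median 0.01). Tnfrsf10b, the mouse TRAIL receptor DR5, gave 486, 472, 440 and 517 untreated and 1742, 1697, 1747 and 1663 treated (1.81). The decoy receptors Tnfrsf23 and Tnfrsf22 rose by 3.20 and 3.14, near-identical copies whose probes may share signal. Casp6 fell by 1.10, which was -0.25 and did not pass as the mean over its probe sets, and Casp2 and Casp8 rose by 0.65 and 0.43. Targets of p53 and the GADD45 genes rose in 12 of 23 cases and fell in 4 (median 0.29). Gadd45a, a stress-induced growth regulator, gave 550, 620, 635 and 472 untreated and 8847, 7894, 7759 and 8202 treated (3.81, SE 0.07). Trp53inp1 rose by 2.14, Sesn2 by 1.85, the cell cycle inhibitor Cdkn1a (p21) by 1.33 and the p53 ligase Mdm2 by 1.10, while Ei24 fell by 0.99.

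Inflammatory genes rose in part. Of 18 NF-kB subunits and feedback genes, 9 rose and 3 fell (median 0.34). Relb, a subunit of the alternative NF-kB pathway, gave 196, 261, 204 and 188 untreated and 1334, 1621, 1306 and 1429 treated (2.66, SE 0.12). Nfkbie rose by 2.00, Nfkb2 by 1.61 and the deubiquitinase Tnfaip3 (A20) by 0.97. Nfkbia, the inhibitor whose breakdown frees NF-kB, fell by 0.12, a fall that turned to a rise of 0.09 with centring on the tested genes. Of 24 chemokines, cytokines and secreted factors tested, 12 rose and 7 fell (median 0.34), and 7 more lay below the filter. A gene dim in untreated cells could pass that filter through treated arrays, so this count may lean towards rises.

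Ccl2, which attracts monocytes, gave 355, 470, 417 and 285 untreated and 4933, 4275, 4453 and 4229 treated (3.52, SE 0.10). Cxcl10 rose by 3.04, Ccl7 by 2.79 and the prostaglandin synthase Ptgs2 (COX-2) by 2.00. Cxcl12, a chemokine made constitutively by fibroblasts, fell by 1.20, and the EGF-family ligand Hbegf by 1.18. Interferon-induced and antigen presentation genes rose in 11 of 21 cases and fell in 3 (median 0.39). Another 6 lay below the filter, with the same limit on the count. The class I heavy chains H2-K1 and H2-D1, related genes whose probes may cross-hybridise, rose by 1.27 and 1.20 (1.96 and 0.46 as the mean over their probe sets), Tapbp by 1.02 and B2m by 0.59, while the interferon-induced Ifit2 fell by 0.97.

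**Figure D3:**
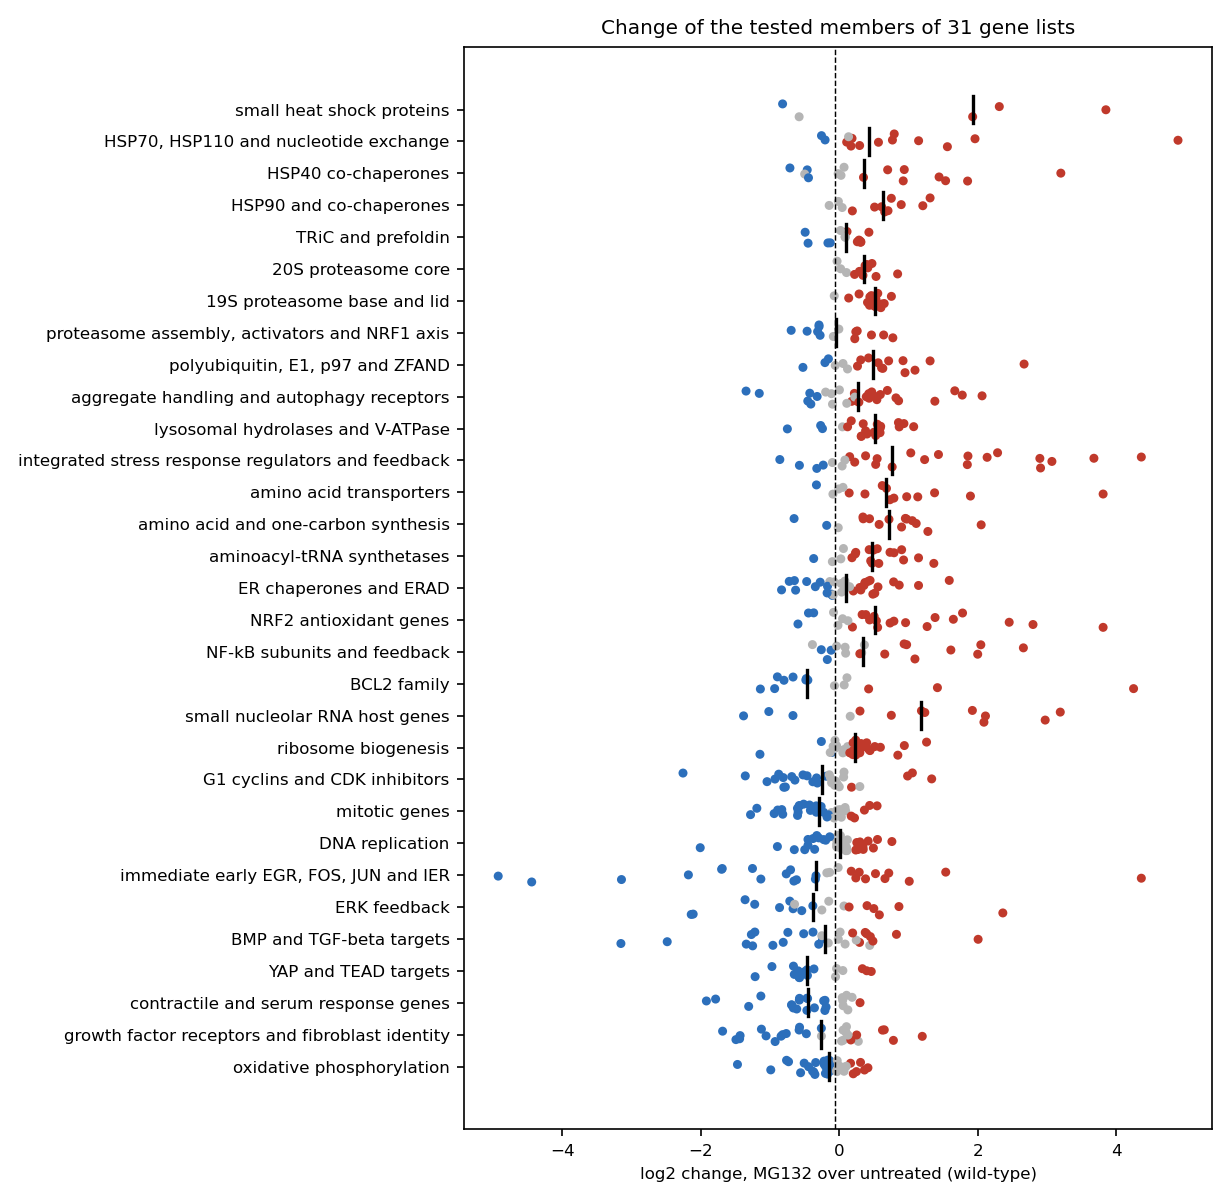
Log2 change of each tested member (dot) of 31 gene lists, red where it rose, blue where it fell and grey where it did not pass, with the list's median as a black bar. The dashed line is the median of all 11457 genes (-0.07); the 19S cap (17 of 18 higher) and the contractile genes (18 of 25 lower) stand on opposite sides of it.

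The 2 falls of at least 4 log2 units were those of Egr1 and Egr3, while lists of growth-factor signalling genes moved both ways. Egr1, the early response factor of the ERK pathway, gave 19224, 20958, 18913 and 16357 untreated and 616, 557, 636 and 602 treated (-4.93, SE 0.09), the largest fall measured above 100 in both groups. Its relative Egr3 went from 1267, 1623, 1616 and 1475 to 39.9, 50.9, 62.2 and 61.8 (-4.44, SE 0.17), low enough for the added constant to matter, and was at -1.68 as the mean over its probe sets. In the early response list 10 of 27 rose and 14 fell (median -0.34), with Ier3 at 1.54 beside Klf10 at -2.18, Ier2 at -1.25 and Fos at -0.62. Of 19 ERK feedback and target genes, 6 rose and 9 fell (median -0.38), a count that includes Dusp4, which was dim in untreated cells. These are 31.6% and 47.4%, beside 27.1% and 36.8% of all tested genes. With centring on the tested genes 6 were higher and 7 lower (median -0.18). The ETS factors Etv5 and Etv4 fell by 2.14 and 2.11, the EGF receptor inhibitor Errfi1 by 1.36 and Spry2 by 1.22. As means over their probe sets Etv5 was at -1.36, Etv4 at -1.26 and Spry2 at -0.54. The MAP kinase phosphatase genes Dusp4 and Dusp1 rose, by 2.36 from a mean of 26.8 and by 0.86, while Dusp6 and Dusp7, named after their values were seen, fell by 0.38 and 0.86.

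Genes of developmental signalling moved in both directions. BMP and TGF-beta genes rose in 8 of 28 cases and fell in 13 (28.6% and 46.4%, beside 27.1% and 36.8% of all tested genes). Their median of -0.20 became 0.003 with centring on the tested genes. Grem1, a secreted BMP antagonist, gave 1127, 1406, 1366 and 1303 untreated and 5375, 5555, 4938 and 5163 treated (2.01). BMP-responsive genes fell, Smad6 by 2.49 (3449, 4243, 4085 and 4059 untreated, 673, 664, 591 and 865 treated), Id1 by 1.34, Id2 by 1.25 and Id3 by 0.96. In the Wnt, Notch and Hedgehog list 3 of 20 rose and 9 fell (median -0.23). The Notch ligand Jag1 rose by 1.85 (1.07 as the mean over its probe sets) and the Notch target Hes1 fell by 2.32, while the Wnt modulators Sfrp2 and Dkk3 each fell by 2.30 and the Hedgehog transducer Smo by 0.81. Of 17 YAP genes 3 rose and 11 fell (median -0.47), among them Nuak2 at -1.22, Crim1 at -0.97 and Yap1 itself at -0.49, which was -0.10 and did not pass as the mean over its probe sets.

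Contractile genes fell more often than they rose, and matrix genes were split. Of 25 contractile and serum response genes, 1 rose and 18 fell (4% and 72%, beside 27.1% and 36.8% of all tested genes, median -0.46). With centring on the tested genes 7 were higher and 12 lower (median -0.25). Myl9, a myosin light chain, gave 5877, 6921, 7401 and 7145 untreated and 1859, 1806, 1652 and 1843 treated (-1.92, SE 0.07). Calponin 2 (Cnn2) fell by 1.79, transgelin (Tagln) by 1.31, the transcription factor Srf by 1.13 (0.53 without the probe sets marked for possible cross-hybridisation) and smooth muscle actin (Acta2) by 0.69. Collagens and matrix glycoproteins rose in 13 of 38 cases and fell in 18, with a median of -0.16 that turned to 0.04 with centring on the tested genes. Nid1, a basement membrane linker, rose by 1.38 and the collagen chaperone Serpinh1 (HSP47) by 0.77, while Col3a1 fell by 1.36, the crosslinking enzyme Loxl1 by 1.14 and Thbs1 by 1.05. The small leucine-rich proteoglycans Ogn and Omd fell by 2.20 and 2.18.

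Matrix proteases and inhibitors rose in 8 of 20 cases and fell in 10 (median -0.24). The rises include Mmp13, which passed the filter on low signals through treated arrays alone. The inhibitor Timp3 rose by 1.75 and the aggrecanase Adamts5 fell by 1.44. Of 28 growth factor receptors and fibroblast identity genes, 6 rose and 14 fell, and the median of -0.26 was 0.03 when all probe sets of a gene were averaged. The PDGF receptor Pdgfrb fell from 6439 ± 393 to 2374 ± 117 (-1.43), Prrx2 by 1.44 and Twist1 by 1.12, whereas Twist2 rose by 0.65 and Snai2 by 1.20.

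G1 and mitotic genes fell more often than they rose, as did all tested genes, though by a wider margin on the deposited scale. Of 30 G1 cyclins, inhibitors and partners, 4 rose and 16 fell (13.3% and 53.3%, median -0.25). With centring on the tested genes 7 were higher and 14 lower (median -0.05). Cyclin D1 (Ccnd1), which carries growth signals to the cell cycle, gave 13312, 13140, 14001 and 13530 untreated and 3056, 2867, 2738 and 2589 treated (-2.26, SE 0.06). Ccnd3 fell by 1.04, which was -0.28 and did not pass as the mean over its probe sets, Ccnd2 by 0.93 and the inhibitor Cdkn2d by 1.36. Of 36 mitotic genes 5 rose and 23 fell (13.9% and 63.9%, median -0.29), led by the kinases Aurkb at -1.28 and Plk1 at -1.19. With centring on the tested genes 10 mitotic genes were higher and 15 lower (median -0.08). Of 38 DNA replication genes 11 were higher and 13 lower (28.9% and 34.2%), near the shares of all tested genes (27.1% and 36.8%). Their median of 0.02 ranged from -0.09 with quantile normalisation to 0.22 with centring on the tested genes, where 24 were higher and 8 lower. Tk1, which makes dTMP, fell from 8006, 9080, 9429 and 8659 to 2267, 2091, 2125 and 2196 (-2.01), while Mcm10 rose by 0.76.

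RNA and ribosome genes moved by class. Host genes of small nucleolar RNAs, whose spliced RNAs are removed by translation-linked decay, rose in 9 of 13 cases and fell in 3 (median 1.19). Snhg12 gave 2336, 2461, 2400 and 2473 untreated and 19061, 18443, 20442 and 18584 treated (2.98, SE 0.04). Zfas1 went from 8209, 8661, 7492 and 8388 to 30441, 29422, 33068 and 31353, Snhg5 rose by 2.11, Snhg17 by 2.09, Snhg1 by 1.19 and Snhg16 by 3.19. As means over their probe sets Snhg16 was at 1.53, Snhg5 at 0.85 and Snhg1 at 0.79. Ribosome biogenesis genes rose in 22 of 34 cases and fell in 3 (median 0.22), with Nop14 at 1.26 and Nop58 at 0.94, while Nop10, a core protein of H/ACA particles, fell by 1.15 from a mean of 15419.

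Ribosomal proteins rose in 15 of 27 cases and fell in 4, with a median of 0.18 that was -0.01 with quantile normalisation, where 4 rose and 7 fell. Translation factors rose in 18 of 26 cases and fell in 2 (median 0.18), among them Eif2b4 at 0.61 and Eif2b2 at 0.52, subunits of the exchange factor that phosphorylated eIF2 blocks. Splicing genes rose in 13 of 30 cases and fell in 8, with a median of 0.06 that was -0.05 with quantile normalisation. Cirbp, an RNA-binding protein induced by cold, fell by 1.65.

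Genes of energy metabolism moved both ways. Of 39 oxidative phosphorylation subunits 6 rose and 23 fell (median -0.15), which became 15 and 10 (median 0.06) with centring on the tested genes. Ndufb3 of complex I gave 7102, 7324, 7494 and 6752 untreated and 2652, 2453, 2651 and 2542 treated (-1.47, SE 0.04), and Sdhc of complex II fell by 0.99. In the TCA cycle list 6 of 20 rose and 8 fell (30% and 40%), near the shares of all tested genes (27.1% and 36.8%). The median of that list was -0.02 (0.18 with that centring). Pdhb, a subunit of pyruvate dehydrogenase, rose by 0.94 and its inhibiting kinase Pdk1 fell by 1.54. Glycolysis and hypoxia genes rose in 5 of 23 cases and fell in 10 (21.7% and 43.5%), with a median of -0.07 (0.14 with that centring). The glucose carrier Slc2a1 fell by 1.26 while Ndrg1 rose by 1.78. Of 34 sterol and fatty acid genes 18 rose and 10 fell (median 0.23), with the sterol enzymes Cyp51 at 1.33, Pmvk at 0.86 and Sc5d at 0.85 and the fatty acid elongase Elovl6 at -1.41.

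Clock genes rose in 7 of 16 cases and fell in 2 (median 0.23). Ciart, a repressor of the clock, gave 216, 265, 231 and 183 untreated and 1384, 1412, 1447 and 1368 treated (2.58, SE 0.10). Cry1 rose by 1.69 and Cry2 by 0.54, while Nr1d1 fell by 0.78 and Clock rose by 0.30, a change that was -0.24 as the mean over its probe sets.

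A few genes went from the background to clear signals. Serpinb9g, of the Serpinb9 cluster of granzyme B inhibitors, gave 1.53, 9.55, 5.68 and 9.38 untreated and 7002, 6932, 7491 and 6475 treated. In the serpin and granzyme list 10 genes were tested and 5 lay below the filter. Serpinb9g passed it through treated arrays, where it is high, so no count is read from this list. Its named rises were Serpinb9c at 3.66, Serpinb9b at 2.73, Serpinb1a at 2.28, Serpinb9 at 1.99 and Gzmb at 4.39. The Serpinb9 genes are close copies, and the probes may not separate them. Mmp13, a collagenase, gave 16.9, 40.1, 9.23 and 19.2 untreated and 1655, 1878, 2228 and 1841 treated. Of 24 keratins and other epithelial genes with a probe set, 15 were tested and 9 lay below the filter, and no count is read from this list either. Krt16, a stress keratin, gave 43.9, 94.4, 104 and 64.1 untreated and 2337, 2375, 2435 and 2458 treated, and Krt14 6.92, 9.41, 13.3 and 10.6 untreated and 414, 417, 583 and 471 treated, a change of 4.22 that was 2.39 as the mean over its probe sets. Of the other epithelial markers, Epcam and Cdh1 stood at 185.1 and 52.2 untreated and at 178.5 and 53 treated. Krt5 averaged 72.7 untreated and 78.8 treated, and Cldn7 36.3 and 37.5. Means were higher in treated cells for Krt8 (44.7 and 99), Krt18 (43 and 95.4), Cldn4 (23.4 and 46.9) and Esrp1 (20.7 and 30.4).

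In the other direction Atoh8, a transcription factor, averaged 504 untreated and 45.8 treated, and Angpt1, a ligand of the TIE2 receptor, 211 and 34.3. The added constant limits the size of changes at such levels.

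Some of the brightest genes kept their level on the deposited scale. The 10 brightest genes whose 95% interval for the change lay within 0.2 of 0, out of 679 such genes, included the ribosomal protein genes Rpl27, Rps15 and Rpl11, Oaz1, Ywhab, Hint1 and the thioredoxin Txn1. Txn1, an antioxidant protein, averaged 38041 and 35851, a change of -0.08 that was -0.44 and passed as the mean over its probe sets, and Oaz1, which controls polyamine synthesis, 31532 and 31797, a change of 0.01. With quantile normalisation these were -0.28 and -0.16, and with centring on the tested genes 0.12 and 0.22. Of 13 genes often used as loading controls, 4 rose and 5 fell (30.8% and 38.5%), near the shares of all tested genes (27.1% and 36.8%). Their median of 0.05 was -0.01 with quantile normalisation.

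The same contrast in CHOP-/- cells showed how much of the response differed with genotype. There 2942 genes (25.7%) rose and 4205 (36.7%) fell, and the difference between both responses passed for 3235 genes in either direction (28.2%). Of the 464 genes that rose at least 2-fold in wild-type cells, 330 rose, 14 fell and 120 did not pass in the knockout. Of the 727 that fell at least 2-fold, 640 fell, 5 rose and 82 did not pass. The difference passed for 269 (58%) and 300 (41.3%) of these, most often with a smaller or opposite knockout response (247 and 272). The genes were chosen on their wild-type changes, so smaller changes elsewhere cannot be read as a property of the knockout. The knockout's own 2-fold lists held 345 and 638 genes. The shared 194 rises were 41.8% of the wild-type and 56.2% of the knockout list, and the shared 340 falls 46.8% and 53.3%.

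Several of the largest wild-type rises were also seen in the knockout. The difference, knockout minus wild-type, was 0.16 for Hspa1a (95% interval -0.03 to 0.36), 0.02 for Sqstm1 (-0.13 to 0.18) and 0.07 for Gadd45a (-0.15 to 0.28), and none of these 3 passed limma's test of the difference. It was -1.20 for Hspb1 and -1.27 for Dnaja4, which rose in both. The differences furthest below 0 among named genes were those of Mmp13 (-6.19, SE 0.40), Dynap (-4.45), Serpinb9g (-3.74), Krt16 (-3.53), the corneodesmosin gene Cdsn (-3.41) and Car6 (-3.30). In the knockout Mmp13 averaged 14.6 and 5.95, and Serpinb9g 15.8 and 724. Levels this close to the added constant of 16 make the size and order of such differences depend on it: with a constant of 64 that of Mmp13 was -4.69, of Dynap -3.53, of Serpinb9g -3.35 and of Krt16 -3.45, and each passed.

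Among differences above 0, Hmox1 (0.92) and the neuronal tubulin Tubb3 (1.66) rose more in the knockout. Xbp1, not past the test in wild-type cells, rose by 1.10 in the knockout (difference 1.17), from a mean of 6538 to 13988. For the falls of Angptl7 (difference 2.38), Gjb5 (2.18), Carns1 (2.11) and Cav3 (1.74), the untreated knockout cells started at 33.9, 7.2, 101 and 40.5, against 3759, 158, 859 and 159 in wild-type cells.

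**Figure D4:**
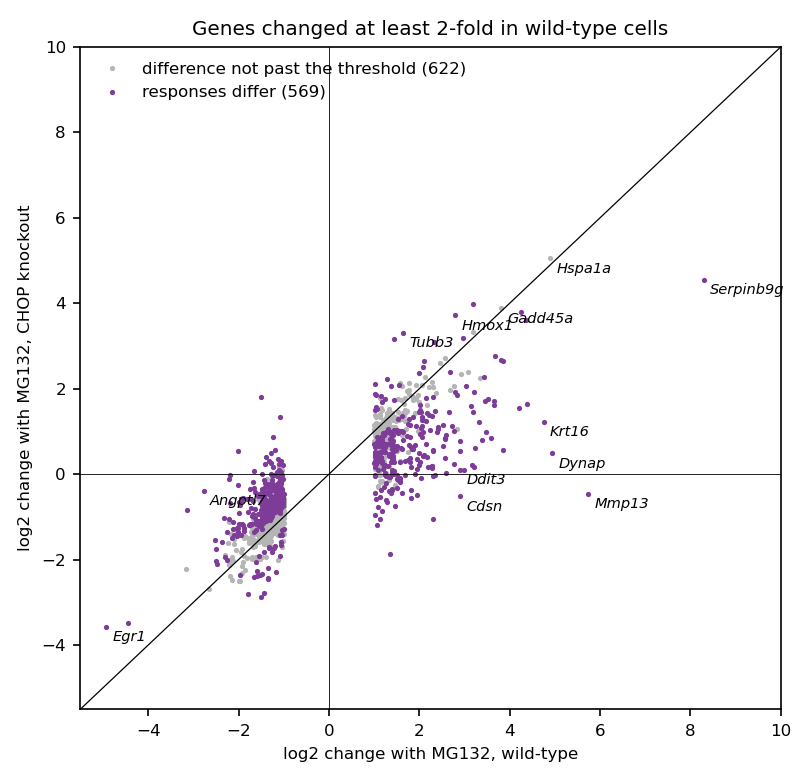
Log2 change with MG132 in wild-type (horizontal) against CHOP-/- cells (vertical) for the 1191 genes that changed at least 2-fold in wild-type cells. Genes whose responses differ (569) are coloured apart from those that did not pass (622); the diagonal line marks equal change, and Mmp13, Dynap and Krt16 lie far below it.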

How the data were processed

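Total RNA of 16 plates was labelled by 3' in vitro transcription and hybridised to an Affymetrix mouse array, per the labels' protocols. The authors deposited 1 linear signal intensity per probe set and array, made with MAS5 per the submitters' processing notes, which give no version. In each column the mean after trimming 2% at each end was 1000, so arrays had been scaled before deposit. Arrays give no read depth, and their number limits the precision. Of 45101 probe sets, 34945 named 1 gene in the platform table, 932 several, 9160 none and 64 were controls. A gene was tested if its probe set lay above the array median on at least 4 of 16 arrays. Genes high in only some groups could pass through those arrays, which bears on the counts of lists with dim genes.

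Values were taken as log2(signal + 16) without further normalisation. limma 3.58.1 in R 4.3.3 fitted 4 group means over all 16 arrays with a variance trend, and contrasts were two-sided with Benjamini-Hochberg adjustment over all 11457 genes at 0.05. Array quality was compared by exact permutation (scipy 1.17.1, Python 3.11.15), two-sided. The fit was tested on simulated data. Genes named are the 20 largest changes each way above a signal of 100 in both groups, the 8 brightest that started and the 8 that ended under 50, up to 6 members per list with the smallest adjusted p plus its defining genes, the 10 brightest with an interval within 0.2 of 0, and the 6 largest genotype differences each way, without unnamed clones. The 53 gene lists, the members and the rules were chosen with earlier results of these data known. Lists are described by counts and medians, with no test of their own. Alternatives were other scalings, pseudocounts, filters, probe sets and arrays, and the replicate block.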

Additional observations from a re-analysis of the deposited data

Results flagged for a closer look

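Among 112 groups of 4 arrays (56 named genes), 9 held an array far from the other 3, by the ratio of its gap to the group's range. Chance flags about 1 in 20 groups. The ratio was 0.943 for Chac1, 0.864 for Il1rn, 0.88 for Procr, 0.98 for Hmox1, 0.845 for Omd and 0.95 for Gzmb in untreated cells, and 0.933 for Dkk3, 0.862 for Angpt1 and 0.888 for H2bc21, a histone gene with near-identical copies, in treated cells. In Gzmb the array that stood apart was untreated replicate 3 at 73.9, against 4.33, 5.06 and 7.82, and the treated arrays lay between 518 and 705. In Hmox1 it was replicate 4, at 3624 against 3288 to 3295.

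The response to MG132 differed between genotypes by limma's test of the difference in 180 of 342 named genes, beside 28.2% of all tested genes. Most of these genes were named for their wild-type changes, so their share is not read as a result about genotype. The largest differences, knockout minus wild-type on the log2 scale, were -6.19 for Mmp13, -4.45 for Dynap, -3.74 for Serpinb9g, -3.53 for Krt16, -3.41 for Cdsn and -3.30 for Car6. Untreated signals of Mmp13, Dynap, Serpinb9g and Car6 lay close enough to the added constant of 16 for the size and order of these to depend on it. With a constant of 64 the difference of Krt16 moved little, to -3.45, and that of Cdsn went to -3.06. On the other side they were 2.38 for Angptl7, 2.18 for Gjb5, 2.11 for Carns1, 1.74 for Cav3, 1.66 for Tubb3 and 1.5 for Klf10.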

How the results depend on the processing

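Under the alternatives run, genes called higher numbered 2607 to 4587 and genes called lower 2853 to 4271. Both extremes of the share of rises came from centring on the tested genes, added after seeing the data (4587 higher, 2853 lower), and from median centring (2933 and 4178). Leaving out each wild-type array in turn gave 2932 to 3062 higher, 4063 to 4152 lower and 2994 to 3289 differing between genotypes. With the replicate block 3174 rose, 4271 fell and 3484 differed, with no named gene losing its call. Deviations of same-numbered wild-type arrays correlated at 0.025, -0.067, 0.117 and -0.004, against -0.143 to 0.114 for other pairs. Correlations this small cannot settle whether the numbers pair the plates. Of 1191 genes changed at least 2-fold, 1130 kept their call and direction with the mean over all probe sets, and 1041 without the probe sets whose suffix marks possible cross-hybridisation, where 3 turned and 131 were not in the fit. With the mean over all probe sets, genes whose sign turned include Axl (0.65), Clock (-0.24), Grb14 (0.013), Mcl1 (-0.31), Plat (0.23) and Rps6 (-0.039). Changes near 0 could turn too, such as those of Tmsb10 (-0.11) and Rps15 (0.035). With quantile normalisation they include Hint1 (-0.16), Oaz1 (-0.16), Rpl27 (-0.11), Rtn4 (-0.12), Serbp1 (-0.12), Tmsb10 (-0.20) and Ywhab (-0.10). With centring on the tested genes they include Nfe2l2 (0.18), Nfkbia (0.086), Sdha (0.041) and Txn1. The cause was not tested. Signals near the added constant of 16 limit the size of changes in dim genes.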

Other observations

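Microtubule and trafficking genes moved in both directions. Of 24 tubulins and motors, 9 rose and 8 fell (37.5% and 33.3%, beside 27.1% and 36.8% of all tested genes). Their median of 0.08 was -0.03 with quantile normalisation, and 12 rose and 2 fell (median 0.29) with centring on the tested genes. The dynein heavy chain Dync1h1 rose by 1.20 (SE 0.10; 0.76 as the mean over its probe sets) and Tubb3 by 1.65 (SE 0.18), while Tubb4b, an abundant tubulin, fell by 0.75, which was -0.08 and did not pass as the mean over its probe sets. Of 30 genes of COPI, COPII and the Golgi, which move proteins between the ER and the Golgi, 14 rose and 8 fell (median 0.09), and 20 and 4 did (median 0.30) with that centring. Stx5a rose by 0.53, the COPI coat gene Copa by 0.47 and Golga2 fell by 0.67.

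In the IGF system 5 of 14 tested genes rose and 5 fell (35.7% each, beside 27.1% and 36.8% of all tested genes, median 0.04). The receptor Igf1r fell by 0.93 (by 0.46 as the mean over its probe sets) and its adaptor Irs2 by 1.07. Igf2r, which clears IGF2, rose by 0.96, and Igfbp3 rose by 1.13 from a mean of 23.7 to 68.9, where the added constant limits the size, and did not pass (0.58) without the probe sets marked for possible cross-hybridisation. Tsc22d3 (GILZ), a gene induced by glucocorticoids, rose by 2.83, which was 1.58 as the mean over its probe sets. Procr, the endothelial protein C receptor, rose by 2.90 in wild-type and 0.78 in knockout cells, whose untreated mean was 1262 against 387.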
